A study of Rattus norvegicus with 15 samples.

Results

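Transcript levels of 10 circadian clock genes were measured in rat hepatocytes exposed to naphthalene or to 1 of 3 hydroxylated derivatives. The genes are Cry1, Cry2, Per1, Per2, Per3, Clock, Nr1d1, Nr1d2, Dbp and Tef, taken as all probes whose accession maps to these symbols. All 10 had a probe, 14 probes in all, and all 10 passed the filter on dim probes, so that they stand among 19803 genes tested. The cells were cryopreserved primary hepatocytes of male Wistar rats (strain written "Wister" in the labels), a cell model that leaves out the light, feeding and hormone rhythms of the animal. After 24 h of pre-culture they received 30 µM 1,5-naphthalenediol, 30 µM 2,7-naphthalenediol, 30 µM 1-naphthol, 30 µM naphthalene or the solvent DMSO for 24 h. Each of the 5 groups has 3 arrays, which the design text calls independent experiments, and neither animals nor cell lots are named, so that p-values measure the spread between these arrays. Both diols carry a hydroxyl on each ring of naphthalene, at different positions, 1-naphthol carries a single hydroxyl, and naphthalene has none. The comparisons ask how each compound changed clock gene levels and whether related compounds did so to different extents. All arrays come from 1 time point, so that a level here is a point on any cycle the cells may have had and holds no period, phase or amplitude.

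The clock of mammalian cells is a transcriptional loop. CLOCK, or its relative NPAS2, pairs with BMAL1 and activates genes that carry E-box elements, among them the period genes Per1 to Per3 and the cryptochrome genes Cry1 and Cry2, whose proteins return to the nucleus and repress CLOCK and BMAL1. The nuclear receptors REV-ERB alpha and beta, encoded by Nr1d1 and Nr1d2, repress Bmal1 and also Cry1 through ROR elements. Dbp and Tef encode PAR-domain leucine zipper factors that act on D-box elements and carry the rhythm to genes of liver metabolism.

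The values are log2 intensities minus the log2 of the array's 75th percentile, so that 0 is the 75th percentile of the array and a difference of 1 is a doubling. On each array 57.4% to 61% of the 58717 spots that are not controls were well above background, and arrays of a group correlated at 0.996 or more. The arrays lie on 2 slides: slide 1 holds all DMSO and 2,7-naphthalenediol arrays and 1,5-naphthalenediol 1 and 2, and slide 2 holds 1,5-naphthalenediol 3 and all 1-naphthol and naphthalene arrays. Many differences between groups on different slides are therefore given also with the slide as a block, which rests on the 1,5-naphthalenediol arrays alone. Where such a difference is given without the block, slide and compound are not separated in it. All 10 hepatocyte markers, such as Alb and Ttr, were measured, with a summed level of 508 to 547 times the 75th percentile on the compound arrays, against 548 to 562 on the DMSO arrays. The brightest markers carry this sum. Cps1 (mean -1.23 against -1.6 with DMSO) and Fgb (4.75 against 4.61) were called higher with 1,5-naphthalenediol, and 0 lower. With naphthalene 0 were called higher and 2 lower, and with 2,7-naphthalenediol and 1-naphthol 0 were called. The shares of all genes called are given below. Of the marker lists of other cells, 4 of 6 stellate cell, 2 of 4 bile duct, 1 of 5 macrophage, 1 of 5 lymphocyte and 0 of 5 endothelial genes passed the filter. The summed level of both bile duct markers that passed, Epcam and Sox9, was 0.456 to 0.549 with a hydroxylated compound and 0.612 to 0.645 with naphthalene, against 0.596 to 0.649 with DMSO. Epcam made up most of this sum. The mean of Sox9 did not follow it: -3.44 with 1-naphthol, -3.46 with naphthalene, -3.76 with 1,5-naphthalenediol and -3.72 with 2,7-naphthalenediol, against -3.83 with DMSO. Against DMSO, 1-naphthol had 1 marker called higher and 1 lower, naphthalene 1 higher, and each diol 1 lower. The 4 stellate markers (Des, Rgs5, Acta2 and Reln) summed to 0.104 to 0.125 on the compound arrays, against 0.0952 to 0.0969 on the DMSO arrays. In limma's F test over the 5 groups only Reln passed (adjusted p = 0.00424). The mean of Rgs5 was lower with naphthalene (-4.97) than with DMSO (-4.93), and that of Des with 1,5-naphthalenediol (-6.27 against -6.25). Against DMSO, each diol and naphthalene had 1 stellate marker called higher, and 1-naphthol had 0 called. The part of these marker levels in the clock gene differences was not tested, and in such bulk samples fewer cells of a type and less RNA per cell cannot be told apart.

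1,5-naphthalenediol moved the clock genes in opposite directions: it raised the repressor gene Cry1 1.71-fold and, less, Cry2, while the REV-ERB genes Nr1d2 and Nr1d1 fell. The Nr1d1 call ended in 6 of 17 alternative runs. 2,7-naphthalenediol raised Cry1 1.24-fold and lowered Nr1d2, each by a smaller amount than 1,5-naphthalenediol. Naphthalene left Cry1 within the spread of the test and had higher Nr1d1, Tef and Cry2 and lower Per2 than DMSO. With 1-naphthol, Cry1 and Cry2 were higher than with DMSO. In limma's moderated F test over the 5 groups, 7 of the 10 genes differed at an adjusted p under 0.05, against 44.7% of all genes, and Per1, Per3 and Clock did not pass.

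Counted against DMSO, 4 of the 10 genes were called with 1,5-naphthalenediol, 2 of them higher and 2 lower, where 22.1% of all genes were called (9.41% higher, 12.7% lower). With 2,7-naphthalenediol 1 was higher and 1 lower, against 11.0% of all genes (6.20% higher, 4.84% lower). With 1-naphthol 2 were higher and 0 lower, against 20.8% of all genes (10.2% higher, 10.6% lower), and at an unadjusted p under 0.05 Nr1d2 would have been lower. Of all genes 28.1% had a smaller p than Nr1d2 there. With naphthalene 3 were higher and 1 lower, against 25.1% of all genes (12.5% higher, 12.6% lower). The median log2 change of the 10 genes was 0.13 with 1,5-naphthalenediol, 0.07 with 2,7-naphthalenediol, 0.05 with 1-naphthol and 0.11 with naphthalene, where the median over all genes was -0.014, -0.024, -0.004 and -0.002 in the same order. The 4 comparisons share the DMSO arrays. 1-naphthol and naphthalene share no slide with DMSO, and with the slide as a block 0 of the 10 genes were called with either. Leaving out 1 array gave 0 to 1 called genes for 1-naphthol and 1 to 4 for naphthalene. The shares of all genes above belong to the fit of all arrays without the block. For these 2 compounds the block widens the errors, so that its count of 0 is not read as particular to clock genes.

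**Figure D1:**
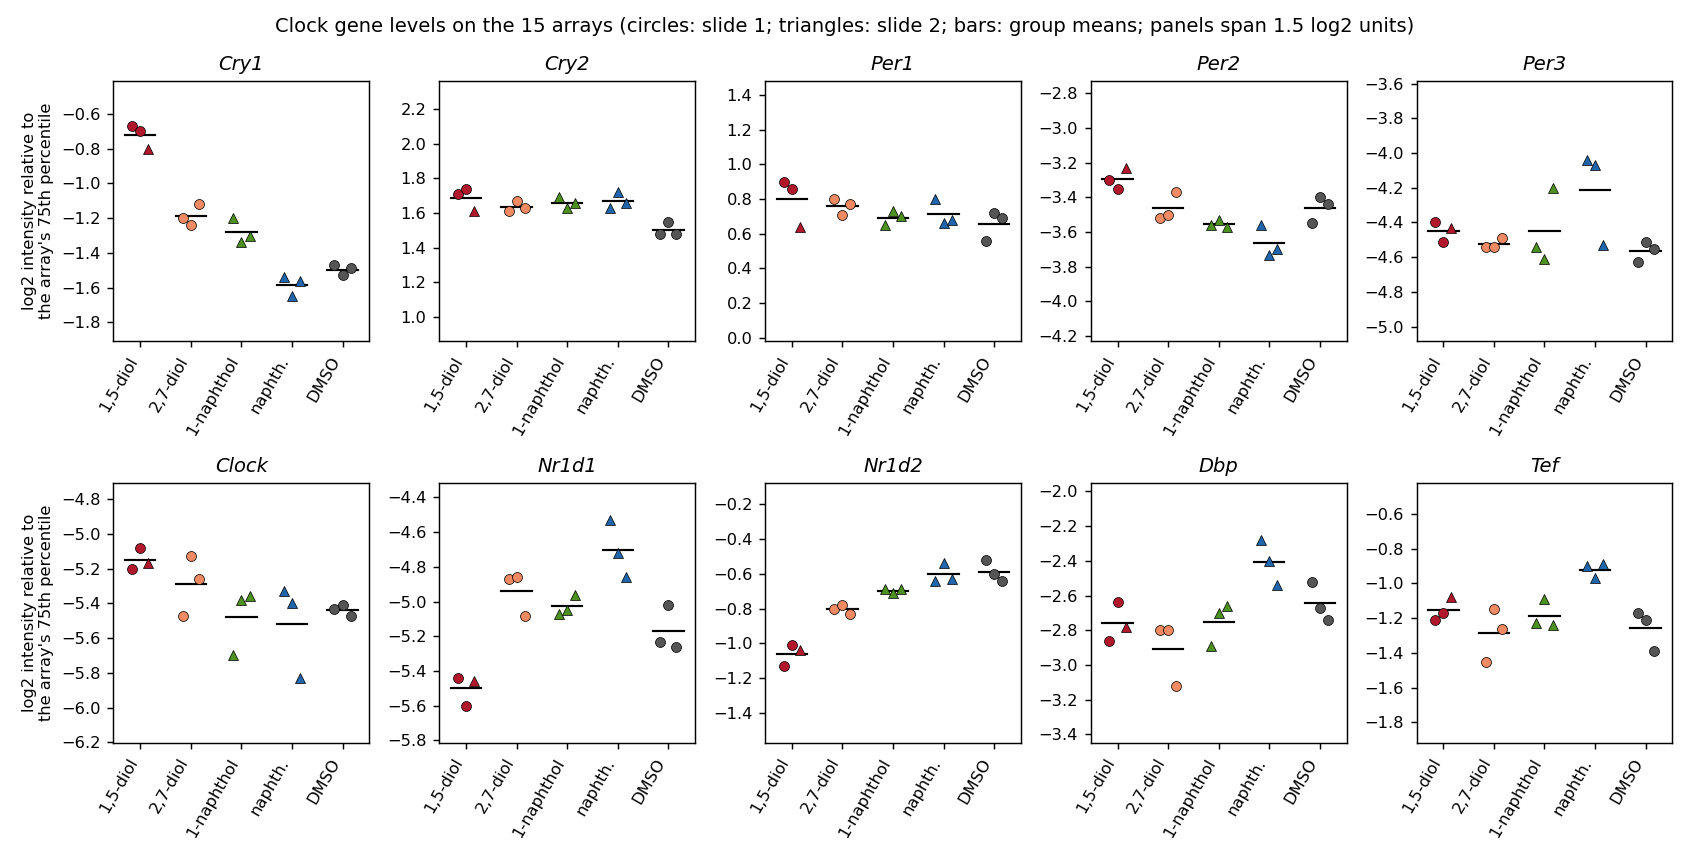
Level of each clock gene on every array, as log2 intensity relative to the array's 75th percentile, by group, with circles for slide 1, triangles for slide 2 and a bar at each group mean. Cry1 lies between -0.8 and -0.67 on the 1,5-naphthalenediol arrays, above every other array, and Nr1d2 lies there between -1.13 and -1.01, below every other array.

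The promoter sequences of RefSeq on GRCr8, 250 bases before to 50 after an annotated start, were at hand for 9 of the 10 genes. They are printed for Per2, Nr1d1 and Tef, which hold an exact clock motif in the window, and for Nr1d2, which fell most and holds none of the motifs searched. Capitals mark the E-box CACGTG, the D-box TTATGTAA or TTACGTAA, and the E-box-like CACGTT, a motif added after the sequences were seen. Both strands were searched. A match is a description of the letters, and these arrays hold no measure of binding.
Per2, chr9:99496944-99497243, minus strand: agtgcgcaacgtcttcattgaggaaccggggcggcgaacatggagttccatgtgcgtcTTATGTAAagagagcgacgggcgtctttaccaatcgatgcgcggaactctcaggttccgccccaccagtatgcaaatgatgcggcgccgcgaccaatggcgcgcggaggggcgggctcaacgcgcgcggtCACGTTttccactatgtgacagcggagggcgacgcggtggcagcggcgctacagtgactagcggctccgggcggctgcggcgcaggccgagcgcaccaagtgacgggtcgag
Nr1d1, chr10:84229405-84229704, minus strand: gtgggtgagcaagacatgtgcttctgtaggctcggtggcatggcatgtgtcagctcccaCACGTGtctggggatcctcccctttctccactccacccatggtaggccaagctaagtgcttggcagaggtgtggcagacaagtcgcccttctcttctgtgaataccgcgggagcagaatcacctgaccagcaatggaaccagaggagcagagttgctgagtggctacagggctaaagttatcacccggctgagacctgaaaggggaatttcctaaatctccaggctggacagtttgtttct
Tef, chr7:115206577-115206876, plus strand: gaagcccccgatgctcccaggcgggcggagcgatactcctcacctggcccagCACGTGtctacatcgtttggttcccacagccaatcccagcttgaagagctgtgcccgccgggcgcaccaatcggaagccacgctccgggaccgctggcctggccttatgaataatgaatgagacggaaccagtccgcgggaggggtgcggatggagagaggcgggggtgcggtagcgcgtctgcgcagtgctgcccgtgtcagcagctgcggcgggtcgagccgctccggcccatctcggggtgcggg
Nr1d2, chr15:9954784-9955083, plus strand: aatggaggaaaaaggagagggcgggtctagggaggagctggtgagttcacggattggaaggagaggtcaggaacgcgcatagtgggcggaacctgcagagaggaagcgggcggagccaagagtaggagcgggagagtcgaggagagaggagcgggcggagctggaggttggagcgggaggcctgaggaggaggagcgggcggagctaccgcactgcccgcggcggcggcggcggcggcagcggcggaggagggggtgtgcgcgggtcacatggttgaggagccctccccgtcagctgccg
The E-box lies at position -191 of the Nr1d1 window, 1 of 2 listed for this gene, and at position -198 in Tef, counted from the start site, and 6.42% of all 33469 promoter windows hold it. Per2 holds the D-box at position -192, as 1.01% of all windows do, and CACGTT at position -62, as 4.83% do. CACGTT was also found in Cry2 and in the other Nr1d1 window, there on the opposite strand as AACGTG. That other window belongs to the start farther upstream and does not hold the E-box CACGTG. The ROR and REV-ERB element TAGGTCA and the cAMP element TGACGTCA were in 0 of the 9 genes' windows, against 2.63% and 1.83% of all windows. The core GCGTG of the dioxin receptor's element, not capitalised here, was in the windows of 4 of the 9 genes (Per3, Nr1d1, Dbp and Tef), against 29.7% of all windows.

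Cry1 encodes the cryptochrome that represses CLOCK and BMAL1 most strongly. Its level was -0.67, -0.7 and -0.8 on the 1,5-naphthalenediol arrays, -1.2, -1.24 and -1.12 on the 2,7-naphthalenediol arrays, -1.2, -1.34 and -1.3 on the 1-naphthol arrays, and -1.54, -1.65 and -1.56 on the naphthalene arrays, against -1.47, -1.53 and -1.49 on the DMSO arrays. The arrays of 1,5-naphthalenediol lay above all others, those of 2,7-naphthalenediol and 1-naphthol overlapped each other and lay above DMSO, and those of naphthalene lay just below DMSO. The mean was -0.72 ± 0.0666 with 1,5-naphthalenediol (SD, n = 3), 0.77 ± 0.0517 (SE) above DMSO on the log2 scale, with an adjusted p of 2.26e-06 in limma. With 2,7-naphthalenediol Cry1 was 0.31 ± 0.0517 above DMSO (limma, adjusted p = 0.00522). With 1-naphthol it was 0.21 ± 0.0517 above DMSO (limma, adjusted p = 0.0153), and the call was lost with the slide as a block (0.32 ± 0.0869, adjusted p = 0.0857) and without DMSO 2 (0.0536) or 1-naphthol 1 (0.0573). With naphthalene the difference from DMSO was -0.09, with a 95% interval of -0.2 to 0.03, and 0.03 with the slide as a block.

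Cry2, the other cryptochrome gene, was 1.71, 1.74 and 1.61 with 1,5-naphthalenediol, 1.61, 1.67 and 1.63 with 2,7-naphthalenediol, 1.69, 1.63 and 1.66 with 1-naphthol, and 1.63, 1.72 and 1.66 with naphthalene, against 1.48, 1.55 and 1.48 with DMSO. Each compound's arrays lay above every DMSO array, and the compounds' arrays overlapped one another. The rise was 0.18 ± 0.0426 (SE) with 1,5-naphthalenediol (limma, adjusted p = 0.0107), a call that ended in 2 of 17 alternatives, and 0.13 ± 0.0426 with 2,7-naphthalenediol did not pass (adjusted p = 0.0709), though it did with the slide as a block (adjusted p = 0.0385). Cry2 was 0.15 higher with 1-naphthol (limma, adjusted p = 0.0275) and 0.16 higher with naphthalene (adjusted p = 0.0183) than with DMSO. Neither passed with the slide as a block, at 0.27 and 0.28 (adjusted p = 0.0711 and 0.0637). Both calls depended on single arrays: without DMSO 3 the adjusted p was 0.0935 for 1-naphthol and 0.0663 for naphthalene, without DMSO 1 it was 0.074 and 0.0538, leaving out any 1-naphthol array ended the first call (0.0525 to 0.0855), and leaving out naphthalene 2 ended the second (0.0629).

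The period genes encode the partners of the cryptochromes in repression. Per2 was -3.3, -3.35 and -3.23 with 1,5-naphthalenediol, -3.52, -3.5 and -3.37 with 2,7-naphthalenediol, -3.56, -3.53 and -3.57 with 1-naphthol, and -3.56, -3.73 and -3.7 with naphthalene, against -3.55, -3.4 and -3.44 with DMSO. The 1,5-naphthalenediol arrays were the highest and did not overlap any other group, and the naphthalene arrays lay below those of DMSO. Per2 was 0.2 lower with naphthalene than with DMSO (-0.2 ± 0.0594, limma, adjusted p = 0.0321), a call that ended with the slide as a block (-0.3, adjusted p = 0.149) and without DMSO 2 (0.106), DMSO 3 (0.095), naphthalene 2 (0.107) or naphthalene 3 (0.0745). Against DMSO, the 0.17 ± 0.0594 of 1,5-naphthalenediol did not pass (limma, adjusted p = 0.0581). Per2 is the gene whose window above holds a D-box, the element on which DBP and TEF act.

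Per1, which responds to glucocorticoids and cAMP as well as to the clock, had group means between 0.8 with 1,5-naphthalenediol and 0.66 with DMSO and passed no comparison (F test, adjusted p = 0.374). On the 1,5-naphthalenediol arrays it was 0.9 and 0.86 on slide 1 and 0.64 on slide 2, against 0.56, 0.72 and 0.69 with DMSO on slide 1. The difference of 1,5-naphthalenediol from DMSO was 0.14 and did not pass (limma, adjusted p = 0.16), and with the slide as a block it was 0.22 and passed (adjusted p = 0.0194). The second Per1 probe, much dimmer, gave 0.22 ± 0.101 for the same comparison (adjusted p = 0.15). Per3, the period gene least needed for the rhythm, was -4.04, -4.07 and -4.53 with naphthalene, against -4.63, -4.51 and -4.55 with DMSO. Naphthalene 3 lay among the DMSO arrays and its other 2 arrays above them, and the difference of 0.35 ± 0.124 did not pass (limma, adjusted p = 0.0567).

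Clock encodes the partner of BMAL1 in the activating pair. It was among the dim probes, at -5.2, -5.08 and -5.17 with 1,5-naphthalenediol, against -5.43, -5.41 and -5.47 with DMSO. These arrays did not overlap, yet the difference of 0.29 ± 0.129 (95% interval 0.01 to 0.57) did not pass (limma, adjusted p = 0.129), and Clock was called in none of the 10 comparisons. At an unadjusted p under 0.05, it would have passed against DMSO (0.0436), 1-naphthol (0.0252) and naphthalene (0.0138) with 1,5-naphthalenediol. Of all genes 33.9%, 20.1% and 25.7% had a smaller p in these comparisons. A second, dimmer Clock probe, well above background on 13 of 15 arrays, gave 0.57 ± 0.19 for 1,5-naphthalenediol minus naphthalene (adjusted p = 0.048), where the brighter probe gave 0.37 ± 0.128 (adjusted p = 0.0558).

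Nr1d2 encodes REV-ERB beta. On its brighter probe the level was -1.13, -1.01 and -1.04 with 1,5-naphthalenediol, -0.8, -0.78 and -0.83 with 2,7-naphthalenediol, -0.69, -0.71 and -0.69 with 1-naphthol, and -0.64, -0.54 and -0.63 with naphthalene, against -0.52, -0.6 and -0.64 with DMSO. The first 3 groups were separate from one another and all lay below DMSO, while naphthalene overlapped DMSO. Nr1d2 fell by 0.48 with 1,5-naphthalenediol (-0.48 ± 0.0436, limma, adjusted p = 2.72e-05) and by 0.22 with 2,7-naphthalenediol (-0.22 ± 0.0436, adjusted p = 0.0115), where the second call ended in 3 of 17 alternatives, the mean of both probes among them. With 1-naphthol the difference was -0.11 ± 0.0436 and did not pass (adjusted p = 0.0853), and with naphthalene it was -0.02 (95% interval -0.11 to 0.08). A second Nr1d2 probe, far dimmer, gave -0.4 ± 0.145 with 1,5-naphthalenediol (adjusted p = 0.0709) and -0.32 ± 0.145 with 2,7-naphthalenediol (adjusted p = 0.173).

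Nr1d1, which encodes REV-ERB alpha and whose printed window holds an E-box, was dim, at -5.44, -5.6 and -5.46 with 1,5-naphthalenediol, -4.87, -4.86 and -5.08 with 2,7-naphthalenediol, -5.07, -5.05 and -4.96 with 1-naphthol, and -4.53, -4.72 and -4.86 with naphthalene, against -5.23, -5.02 and -5.26 with DMSO. The 1,5-naphthalenediol arrays were below every other array and the naphthalene arrays above every DMSO array. Nr1d1 fell by 0.33 with 1,5-naphthalenediol (-0.33 ± 0.0923, limma, adjusted p = 0.0249), and this call ended without DMSO 2 (0.095) or 1,5-naphthalenediol 2 (0.0863). The call ended in 6 of 17 alternatives, with slide 1 alone, only the groups compared and no filter on dim probes among them. With naphthalene Nr1d1 was 0.47 ± 0.0923 higher than with DMSO (limma, adjusted p = 0.00568), and 0.41 ± 0.172 with the slide as a block, which did not pass (adjusted p = 0.222). The differences of 0.23 with 2,7-naphthalenediol and 0.14 with 1-naphthol did not pass (adjusted p = 0.118 and 0.288). By its group means Nr1d1 lay on opposite sides of DMSO with 1,5-naphthalenediol and naphthalene, though neither call against DMSO held in every alternative. These compounds differed by -0.8 ± 0.0923 (limma, adjusted p = 0.000145). The sizes for this dim gene depend on the background correction: with normexp the difference of 1,5-naphthalenediol from DMSO was -0.132 and not called, and that of naphthalene was 0.224 and called.

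Dbp, a PAR-domain factor and a standard readout of CLOCK and BMAL1 activity, was -2.86, -2.64 and -2.78 with 1,5-naphthalenediol, -2.8, -2.8 and -3.12 with 2,7-naphthalenediol, -2.89, -2.7 and -2.66 with 1-naphthol, and -2.28, -2.4 and -2.54 with naphthalene, against -2.52, -2.67 and -2.74 with DMSO. The naphthalene arrays were above those of every other compound and overlapped DMSO. Against DMSO no difference of Dbp passed on its brighter probe, and with naphthalene it was 0.24 ± 0.104 (limma, adjusted p = 0.112). Its second probe, almost as bright, gave 0.44 ± 0.0616 with naphthalene (adjusted p = 0.00185), with all 3 naphthalene arrays (-2.41, -2.34 and -2.47) above the DMSO arrays (-2.78, -2.86 and -2.9). Naphthalene and DMSO share no slide, and the second probes of all genes were fitted only without the slide as a block.

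Tef, a second PAR-domain factor, was -0.9, -0.97 and -0.89 with naphthalene, against -1.17, -1.21 and -1.39 with DMSO, and all other arrays lay between -1.45 and -1.08. Only the naphthalene arrays stood apart. The rise with naphthalene was 0.33 ± 0.0791 (limma, adjusted p = 0.0123), 0.22 ± 0.142 with the slide as a block (adjusted p = 0.424), and the adjusted p was 0.0526 without DMSO 3. With the other compounds the differences from DMSO were 0.1 (1,5-naphthalenediol), -0.03 (2,7-naphthalenediol) and 0.07 (1-naphthol), none called.

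**Figure D2:**
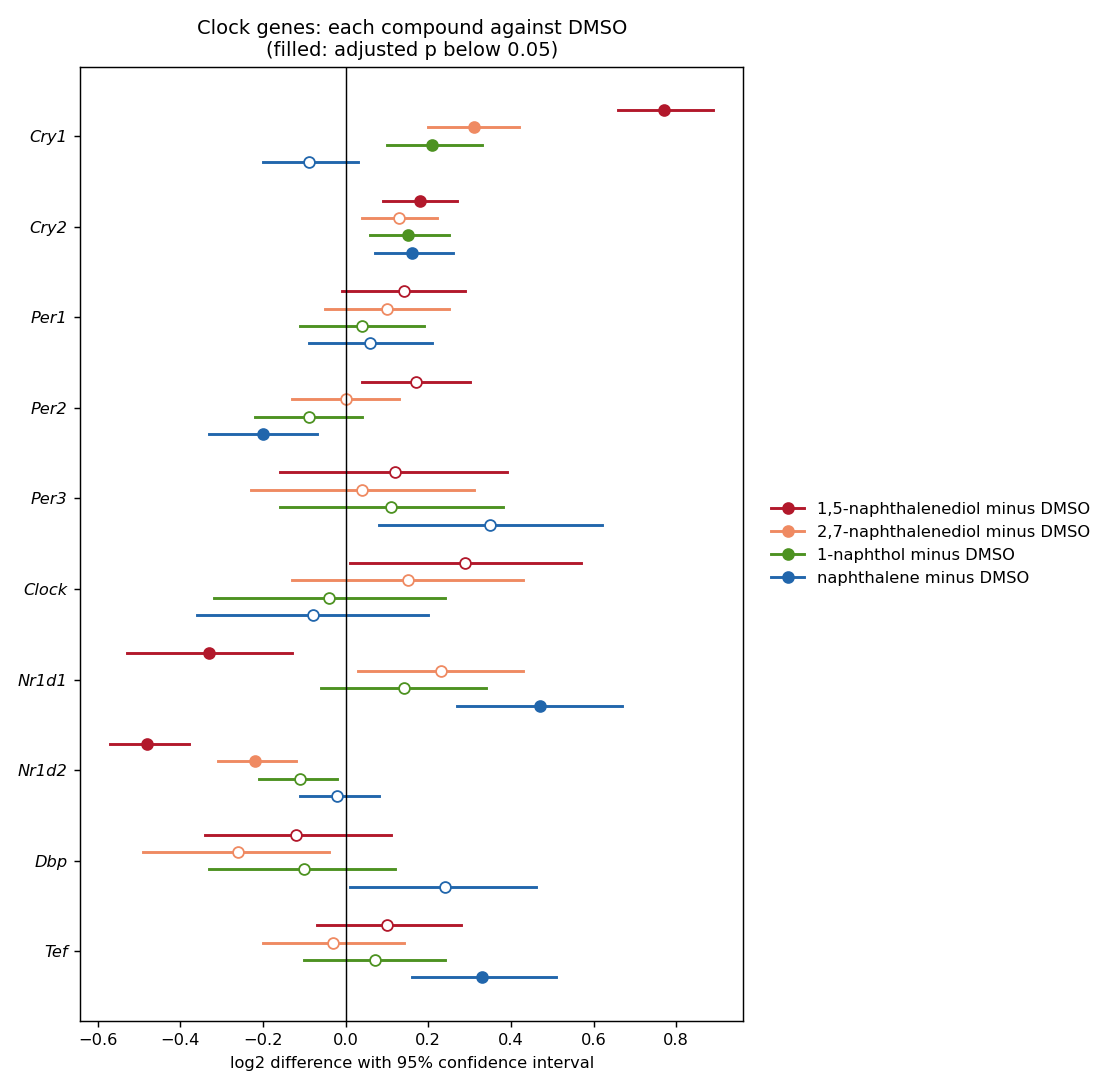
Difference of each compound from DMSO for the 10 clock genes, in log2 units with 95% confidence intervals, filled where the adjusted p was below 0.05. Cry1 at 0.77 and Nr1d2 at -0.48 with 1,5-naphthalenediol lie farthest from 0, and Nr1d1 lies at -0.33 with 1,5-naphthalenediol and at 0.47 with naphthalene.

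The compounds were then set against each other at the same dose and time, in 6 pairs. The diols differ only in the positions of their hydroxyls, and 1,5-naphthalenediol minus 2,7-naphthalenediol called 1 gene higher and 2 lower, against 14.7% of all genes (6.62% higher, 8.10% lower). Cry1 was 0.46 ± 0.0517 higher with 1,5-naphthalenediol (limma, adjusted p = 0.000181). Nr1d1 differed by -0.56 ± 0.0923 (adjusted p = 0.00209) and Nr1d2 by -0.26 ± 0.0436 (adjusted p = 0.0026). The second Nr1d2 probe did not show the difference between the diols (-0.08 ± 0.145, adjusted p = 0.761), and with both probes averaged the call was lost (adjusted p = 0.201). Cry2 did not differ detectably between the diols, with a 95% interval of -0.04 to 0.14.

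1,5-naphthalenediol has a second hydroxyl that 1-naphthol lacks, and against 1-naphthol 2 genes were higher and 2 lower, where 9.16% of all genes were called (4.36% higher, 4.80% lower). Cry1 was 0.56 ± 0.0517 higher (limma, adjusted p = 0.000117) and Per2 0.26 ± 0.0594 higher (adjusted p = 0.0218), while Nr1d2 differed by -0.36 ± 0.0436 (adjusted p = 0.000567) and Nr1d1 by -0.47 ± 0.0923 (adjusted p = 0.0102). Under the slide block Cry1 (0.48, adjusted p = 0.00692) and Nr1d2 (-0.34, adjusted p = 0.022) kept the call, and Per2 (0.33, adjusted p = 0.075) and Nr1d1 (-0.43, adjusted p = 0.153) did not. The Per2 call also ended without 1,5-naphthalenediol 1 (0.0597) or any 1-naphthol array (0.0573 to 0.075). On slide 2 1,5-naphthalenediol has a single array. Cry1 was -0.8 on it, against -1.2, -1.34 and -1.3 with 1-naphthol, and Per2 -3.23, against -3.56, -3.53 and -3.57. Nr1d2 was -1.04, against -0.69, -0.71 and -0.69, and Nr1d1 -5.46, against -5.07, -5.05 and -4.96.

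2,7-naphthalenediol and 1-naphthol were not told apart by any of the 10 genes, where 14.7% of all genes were called (6.23% higher, 8.49% lower), and at an unadjusted p under 0.05 the count was 1, Nr1d2 (0.0309). Of all genes 25.9% had a smaller p than this. The 95% interval of the difference was -0.02 to 0.21 for Cry1, -0.12 to 0.07 for Cry2, -0.11 to 0.29 for Nr1d1 and -0.2 to -0.01 for Nr1d2. These intervals come from the fit without the slide block. The groups share no slide, so that compound and slide are not separated in them. The sign of the Cry1 difference changed in 1 of 16 alternatives. The second Dbp probe, fitted without the slide block, gave -0.27 ± 0.0616 here (adjusted p = 0.0169), and the brighter gave -0.16 ± 0.104 (adjusted p = 0.319).

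Against naphthalene, which has no hydroxyl, 1,5-naphthalenediol had 2 genes higher and 3 lower, where 24.9% of all genes were called (11.3% higher, 13.7% lower). Cry1 was 0.86 ± 0.0517 higher (limma, adjusted p = 1.14e-06), which is 1.82-fold, and Per2 0.37 ± 0.0594 higher (adjusted p = 0.00126). Nr1d1 differed by -0.8 ± 0.0923 (adjusted p = 0.000145), Nr1d2 by -0.46 ± 0.0436 (adjusted p = 4.22e-05) and Dbp by -0.35 ± 0.104 (adjusted p = 0.0275). In the fit with the slide as a block the first 4 passed, at 0.79, 0.44, -0.76 and -0.44 for Cry1, Per2, Nr1d1 and Nr1d2, and Dbp did not (-0.38, adjusted p = 0.158). The second Dbp probe, fitted without the slide block, gave -0.4 ± 0.0616 (adjusted p = 0.000922). The Dbp call on the brighter probe also ended without 1,5-naphthalenediol 1 (0.0972), 1,5-naphthalenediol 3 (0.052), naphthalene 1 (0.099) or naphthalene 2 (0.0667).

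2,7-naphthalenediol against naphthalene had 2 genes higher and 3 lower, where 15.8% of all genes were called (6.32% higher, 9.50% lower). Cry1 was 0.4 ± 0.0517 higher (limma, adjusted p = 0.00328) and Per2 0.2 ± 0.0594 higher (adjusted p = 0.0404), while Dbp differed by -0.5 ± 0.104 (adjusted p = 0.0119), Tef by -0.36 ± 0.0791 (adjusted p = 0.0135) and Nr1d2 by -0.2 ± 0.0436 (adjusted p = 0.0134). The second Dbp probe, fitted only without the slide block, gave -0.59 ± 0.0616 (adjusted p = 0.00173). These groups share no slide, and with the slide as a block none of the 5 genes passed, at 0.28, 0.3, -0.53, -0.25 and -0.17 in that order (adjusted p from 0.36 to 0.639). Without 2,7-naphthalenediol 3 the Nr1d2 call (0.0528) and the Per2 call (0.147) ended, and the Per2 call ended also without 2,7-naphthalenediol 1 (0.0531), 2,7-naphthalenediol 2 (0.0672), naphthalene 2 (0.125) or naphthalene 3 (0.096).

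1-naphthol and naphthalene lie on the same slide, and 1 of the 10 genes, Cry1, was called between them, where 2.44% of all genes were (1.04% higher, 1.40% lower). Cry1 was 0.3 ± 0.0517 higher with 1-naphthol (limma, adjusted p = 0.0121), with arrays that did not overlap. The adjusted p was 0.058 without 1-naphthol 1, 0.05 without naphthalene 2 and 0.11 from slide 2 alone. Nr1d1 (-0.32 ± 0.0923, adjusted p = 0.0917), Dbp (-0.34 ± 0.104, adjusted p = 0.112) and Tef (-0.27 ± 0.0791, adjusted p = 0.104) were each lower on all 3 1-naphthol arrays than on all 3 naphthalene arrays and did not pass. On the second Dbp probe the difference was -0.32 ± 0.0616 and passed (adjusted p = 0.0223) in the fit of all arrays.

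**Figure D3:**
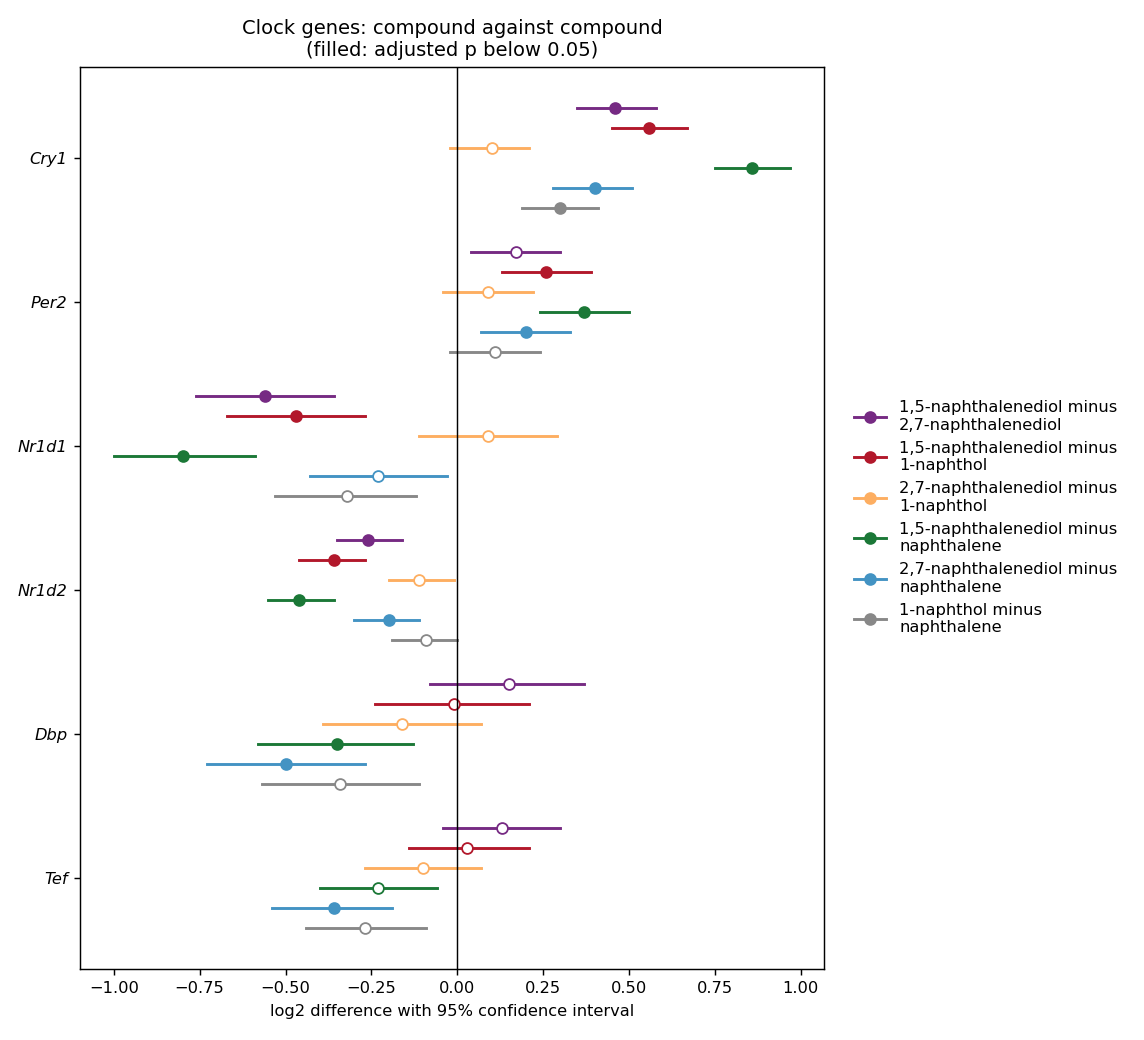
Difference between compounds for 6 clock genes in the 6 pairs, in log2 units with 95% confidence intervals, filled where the adjusted p was below 0.05. Differences of 1,5-naphthalenediol from the other compounds lie at 0.46 to 0.86 for Cry1 and at -0.8 to -0.47 for Nr1d1, while 2,7-naphthalenediol minus 1-naphthol has no filled point.

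The order of the groups by Cry1 level was 1,5-naphthalenediol, 2,7-naphthalenediol, 1-naphthol, DMSO and naphthalene, where neither 2,7-naphthalenediol and 1-naphthol nor naphthalene and DMSO passed the test between them. By Nr1d2 level the order ran the other way, with 1,5-naphthalenediol lowest, then 2,7-naphthalenediol, 1-naphthol, naphthalene and DMSO, and past 2,7-naphthalenediol no neighbours passed the test. For Nr1d1 the order was naphthalene, 2,7-naphthalenediol, 1-naphthol, DMSO and 1,5-naphthalenediol, where the last step was called and the others were not. These orders set groups of different slides side by side without the slide block, so that compound and slide are not separated in them.

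**Figure D4:**
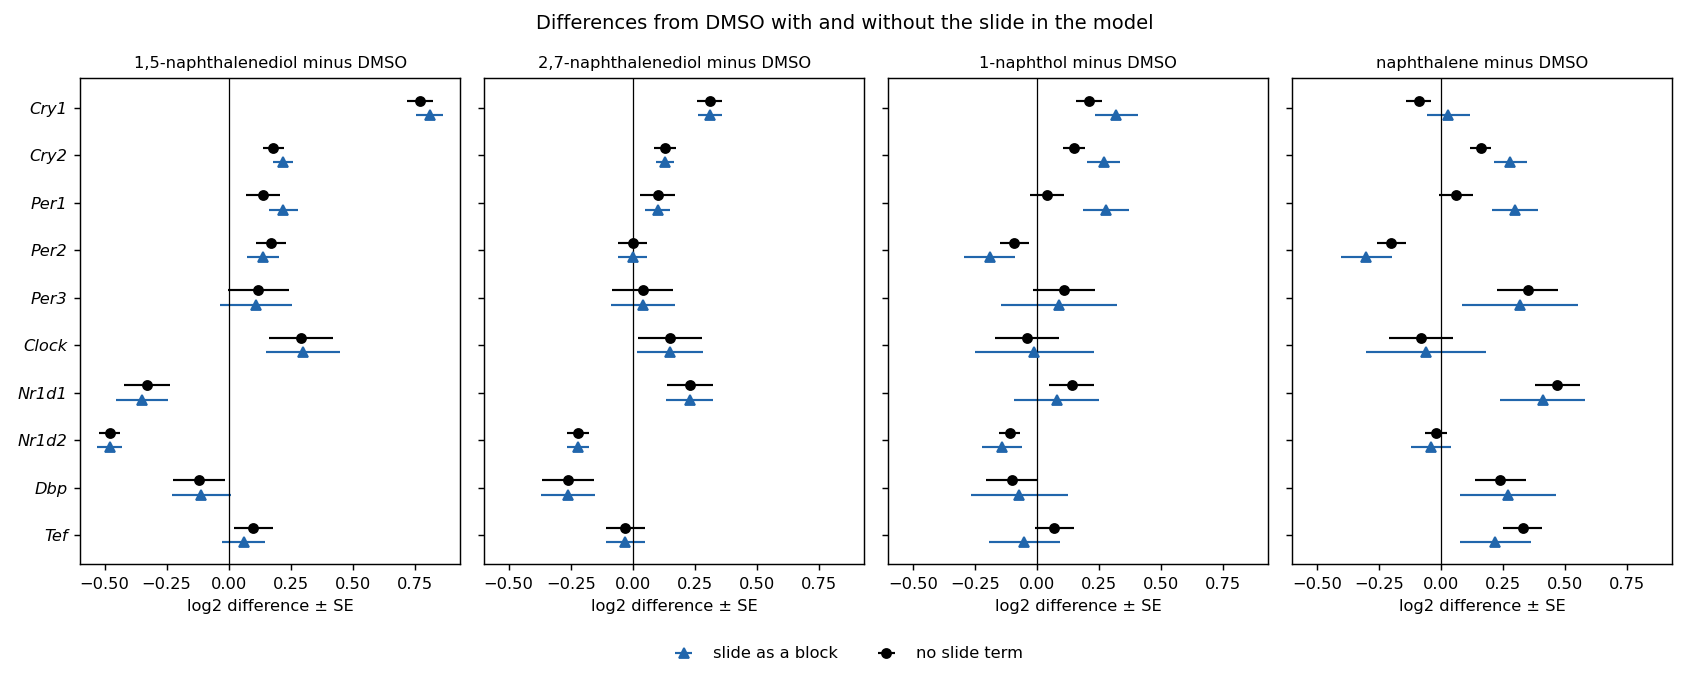
Difference of each compound from DMSO for the 10 clock genes with no slide term (circles) and with the slide as a block (triangles), in log2 units ± SE. For 2,7-naphthalenediol both estimates coincide, for 1,5-naphthalenediol Per1 lies at 0.14 without and 0.22 with the block, and for 1-naphthol and naphthalene the block has the wider errors and Cry1, Cry2 and Per1 lie higher with it.

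Within 1,5-naphthalenediol, the only group on both slides, the array of slide 2 lay below the mean of the slide 1 arrays by -0.24 for Per1, -0.12 for Cry2 and -0.11 for Cry1, and above it by 0.11 for Tef and 0.1 for Per2. Over all genes the median of this difference was -0.01 and its median size 0.1. The sizes for Nr1d1 (0.06), Nr1d2 (0.03), Dbp (-0.03), Per3 (0.03) and Clock (-0.02) were smaller than that median.

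Of the other clock genes, the activating arm was measured through Bmal1, Bmal2 and Npas2, 3 of a list of 6. Bmal1, the partner of CLOCK, was called lower with naphthalene, at -0.65, -0.61 and -0.53 with naphthalene against -0.38, -0.39 and -0.37 with DMSO. The difference of -0.22 ± 0.0555 (limma, adjusted p = 0.0167) was -0.09 with the slide as a block (adjusted p = 0.642), and it lost the call without DMSO 3 or naphthalene 1 (highest adjusted p = 0.0595). With 1,5-naphthalenediol Bmal1 differed by -0.01 and with 2,7-naphthalenediol by 0.02, neither called. Npas2 was 0.19 higher with 2,7-naphthalenediol (adjusted p = 0.0447), a call that ended without any 1 of the 6 arrays (highest adjusted p = 0.144), and Bmal2 passed nowhere against DMSO.

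The lists that follow are read against the shares of all genes called against DMSO given above, 22.1% with 1,5-naphthalenediol, 11.0% with 2,7-naphthalenediol, 20.8% with 1-naphthol and 25.1% with naphthalene. Of 8 further output and feedback factors 5 were tested. With 1,5-naphthalenediol 2 rose and 3 fell, with 2,7-naphthalenediol 1 rose and 1 fell, with 1-naphthol 1 was higher and 2 lower, and with naphthalene 0 were higher and 1 lower, with median changes of -0.21, -0.02, -0.05 and 0.01 in that order. Klf10, a clock-controlled zinc finger factor, fell by 0.74 with 1,5-naphthalenediol (-0.74 ± 0.0529, limma, adjusted p = 3.94e-06), and its change was -0.18 with 2,7-naphthalenediol, -0.52 with 1-naphthol and -0.25 with naphthalene, all called. The call with 2,7-naphthalenediol ended without any 1 of its 6 arrays (highest adjusted p = 0.145). Klf10 was at -0.34 with 1-naphthol (adjusted p = 0.0544) and -0.08 with naphthalene (adjusted p = 0.591) when the slide was a block. Bhlhe40, the repressor DEC1, fell by 0.32 with 1,5-naphthalenediol (adjusted p = 0.0101) and was at -0.33 with 1-naphthol (adjusted p = 0.0123), where the second call ended without DMSO 3 (0.0523) and with the slide as a block (-0.39, adjusted p = 0.169). Cipc, an inhibitor of CLOCK, fell by 0.21 with 1,5-naphthalenediol (adjusted p = 0.0202, ended without DMSO 2, DMSO 3, 1,5-naphthalenediol 1 or 1,5-naphthalenediol 2, highest 0.0758). Timeless, named after a clock gene of the fly, rose by 0.39 with 1,5-naphthalenediol (adjusted p = 0.00168) and was 0.31 higher with 1-naphthol (adjusted p = 0.00959), the last being 0.34 with the slide as a block (adjusted p = 0.172). Nfil3, the repressor that competes with DBP and TEF at D-boxes, rose by 0.19 with 1,5-naphthalenediol (adjusted p = 0.0331) and by 0.26 with 2,7-naphthalenediol (adjusted p = 0.0166). The first Nfil3 call ended without any DMSO array or without 1,5-naphthalenediol 1 (highest adjusted p = 0.119), and the second without DMSO 1 or 2,7-naphthalenediol 2 (highest 0.0714).

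Of 13 genes for clock kinases and protein turnover 10 were tested, with 2 higher and 1 lower for 1,5-naphthalenediol, 2 higher for 2,7-naphthalenediol, 1 higher and 1 lower for 1-naphthol, and 3 higher and 1 lower for naphthalene, and median changes of 0.04, 0.06, 0.01 and 0.03 in that order. The casein kinase 1 genes Csnk1d, Csnk1e and Csnk1a1, whose products phosphorylate the period proteins, passed nowhere against DMSO. Usp2, a deubiquitinase under clock control, rose by 0.3 with 1,5-naphthalenediol (adjusted p = 0.000358) and was 0.31 and 0.35 higher with 1-naphthol and naphthalene than with DMSO (adjusted p = 0.00126 and 0.000988). In the slide block fit Usp2 was at 0.28 and 0.32 for these compounds, with an adjusted p of 0.086 and 0.0612. Gsk3b, a kinase of several clock proteins, was 0.16 higher with 1,5-naphthalenediol (adjusted p = 0.00949). It was also 0.16 higher with 2,7-naphthalenediol (adjusted p = 0.0225), a call that ended without any DMSO array, 2,7-naphthalenediol 2 or 2,7-naphthalenediol 3 (highest 0.087). With naphthalene Gsk3b was 0.12 higher (adjusted p = 0.0385), a call that ended with the slide as a block (0.13, adjusted p = 0.323) and without any DMSO array, naphthalene 1 or naphthalene 3 (highest 0.121). Fbxw7, a ubiquitin ligase subunit, was 0.14 higher with 2,7-naphthalenediol (adjusted p = 0.0313), which ended without any DMSO array, 2,7-naphthalenediol 2 or 2,7-naphthalenediol 3 (highest 0.116). With naphthalene Fbxw7 was 0.11 higher (adjusted p = 0.0466), which ended without any 1 of the 6 arrays (highest 0.146) and with the slide as a block (0.13, adjusted p = 0.301). Csnk2b, a casein kinase 2 subunit, was at -0.37 with naphthalene (adjusted p = 0.00304) and -0.22 with 1-naphthol (adjusted p = 0.0245). Neither held with the slide as a block (-0.16 and -0.02, adjusted p = 0.309 and 0.943), and the second ended also without DMSO 1, DMSO 3 or any 1-naphthol array (highest 0.0748).

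Of 12 clock-controlled genes of liver metabolism 10 were tested, and 5 rose and 2 fell with 1,5-naphthalenediol, 2 rose and 1 fell with 2,7-naphthalenediol, 4 were higher and 2 lower with 1-naphthol, and 2 were higher and 1 lower with naphthalene, with median changes of 0.19, -0.01, 0.08 and -0.01. The count of 5 and the median of 0.19 include Pck1, 0.93 higher with 1,5-naphthalenediol (limma, adjusted p = 0.0255). Its DMSO levels of -7.99, -7.12 and -7.65 lay below the lowest spot well above background on those arrays (-6.8533 to -6.9096). Pck1 passed the filter on dim probes only through the 1,5-naphthalenediol arrays, so that its rise is not read as a result. These genes have other regulators too, xenobiotic receptors among them. Alas1, the first enzyme of heme synthesis, rose by 0.95 with 1,5-naphthalenediol (limma, adjusted p = 2.78e-06), and was 0.3 higher with 1-naphthol (adjusted p = 0.00955; 0.44 with the slide as a block, adjusted p = 0.0781). With 2,7-naphthalenediol it was at -0.04 and with naphthalene at 0.01, both not called. Ppara, the receptor of fatty acid breakdown, rose by 0.73 with 1,5-naphthalenediol (adjusted p = 6.49e-05) and by 0.3 with 2,7-naphthalenediol (adjusted p = 0.0285, ended without any DMSO array, 2,7-naphthalenediol 2 or 2,7-naphthalenediol 3, highest 0.0903). Ppara was also 0.63 higher with 1-naphthol and 0.4 with naphthalene, and both held with the slide as a block (0.86 and 0.63, adjusted p = 0.00945 and 0.0424). Gys2, liver glycogen synthase, fell by 0.58 with 1,5-naphthalenediol (adjusted p = 2.26e-05). It fell by 0.19 with 2,7-naphthalenediol (adjusted p = 0.0357), a call that ended without any 1 of the 6 arrays (highest 0.106). It was at -0.24 with 1-naphthol (adjusted p = 0.00963) and -0.2 with naphthalene (adjusted p = 0.019), where neither passed with the slide as a block (adjusted p = 0.226 and 0.304) and the naphthalene call ended also without DMSO 1 or naphthalene 1 (highest 0.0704). Por, the electron donor of cytochromes P450, rose by 0.34 with 1,5-naphthalenediol and by 0.4 with 2,7-naphthalenediol. Por was 0.26 higher with 1-naphthol (adjusted p = 0.0407), a call lost without any 1 of the 6 arrays (highest 0.128) and kept with the slide as a block (0.57, adjusted p = 0.0303). Nr1i3, the receptor CAR, rose by 0.44 with 1,5-naphthalenediol (adjusted p = 0.00577) and was 0.41 higher with 1-naphthol (adjusted p = 0.0121) and 0.34 with naphthalene (adjusted p = 0.0224). The last 2 did not pass with the slide as a block (adjusted p = 0.207 and 0.275), and they ended also without DMSO 3 for 1-naphthol (0.051) and without DMSO 2, DMSO 3 or naphthalene 1 for naphthalene (highest 0.0855). Noct, a rhythmic phosphatase, was at -0.41 with 1-naphthol (adjusted p = 0.0149), a call that ended with the slide as a block (-0.5, adjusted p = 0.166) and without DMSO 2, DMSO 3 or 1-naphthol 2 (highest 0.0597).

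Of 8 glucocorticoid-responsive genes, a signal that also sets Per1, all were tested, and 3 were called with each compound against DMSO, with median changes between -0.04 and 0.04. With 1,5-naphthalenediol 3 were higher and 0 lower, and with each of the other compounds 2 were higher and 1 lower. Klf9 and Zbtb16 were higher with all 4 compounds, by 0.44 to 0.52 and by 0.33 to 0.47, where with the slide as a block the adjusted p of Klf9 was 0.0958 for 1-naphthol and 0.113 for naphthalene, and that of Zbtb16 was 0.0764 for 1-naphthol and 0.0496 for naphthalene. Tat, a tyrosine-degrading enzyme, was 0.38 higher with 1,5-naphthalenediol (adjusted p = 0.00745) and at -0.41 with naphthalene (adjusted p = 0.00618), the last being -0.21 with the slide as a block (adjusted p = 0.434). Tsc22d3, the anti-inflammatory factor GILZ, fell by 0.37 with 2,7-naphthalenediol (adjusted p = 0.0052). The glucocorticoid receptor gene Nr3c1 passed nowhere against DMSO.

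The genes nearest to each member by level pattern were taken as those with the smallest root mean square difference over the 15 arrays after centring each gene on its own mean. For Cry1 these were Tcp11l1 (0.0859) and Slc17a1 (0.0951), against a spread of Cry1 about its own mean of 0.305. For Nr1d2 they were Ccdc28a (0.041), Kynu (0.0552) and Idi1 (0.0585), against an own spread of 0.178. For Nr1d1 they were Lhx8 (0.118), Fam43a (0.12) and Klhdc8a (0.123), and the nearest clock gene was Nr1d2 at 0.213, against an own spread of 0.281. For Per2 they were Dph5 (0.0507), Orc4 (0.0629) and Psmd12 (0.0652), for Dbp Ephb6 (0.1), Mtarc1 (0.113) and Rtp3 (0.12), for Tef Slc2a12 (0.0825), Clic5 (0.0883) and Kdm4a (0.0889), and for Cry2 Csk (0.0369), Cdv3 (0.0385) and Glud1 (0.0386). These distances describe the 15 arrays, which share groups and slides.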

How the data were processed

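RNA of 15 rat hepatocyte samples had been hybridised singly to one-colour Agilent arrays with Cy3. Per the file headers, the deposited intensity of each spot (processed signal) came from Feature Extraction 10.7.1.1 with a design annotated on rn4, and other deposited columns give quality flags and local background. Those intensities were not normalized between arrays. Here flagged spots (250 to 354 an array) were left out, each log2 intensity was taken relative to the array's 75th percentile, spots of a probe were averaged, and a probe was kept where some group had it well above background in its 3 arrays. The brightest of several kept probes stood for a gene. Accessions were named through RefSeq's gene table (GRCr8): 21229 of 45598 probes had 1 symbol, and the others were tested under their accession. limma 3.58.1 in R 4.3.3 fitted 5 group means over 15 arrays, with Benjamini-Hochberg adjustment over 19803 genes and a threshold of 0.05, after being tested on simulated data. The deposited columns of no sample that were used number 0. The number of arrays limits the precision. Promoter letters come from RefSeq.

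Named were all 10 members, of the other lists the genes passing the F test with at most 6 a list by the size of their change against DMSO, the activating arm, and the 3 nearest genes of each member passing the F test. Casein kinase 1 genes, Nr3c1 and the cell markers are named besides, and a few genes that these rules take in are not reported here. Members and lists were chosen with earlier results of these data known. Alternatives were quantile normalization, normexp background correction, no or a stricter filter on dim probes, averaged probes, the slide or the replicate number as a block, fits on fewer groups or 1 slide, adjustment over the 10 comparisons together, and leaving out each array. Equal replicate numbers did not pair the arrays: of 30 same-number pairs of arrays, 2 deviated together with a correlation over 0.1.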

Additional observations from a re-analysis of the deposited data

How the results depend on the processing

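Of the 30 called differences of the 10 genes, 7 kept their direction and call in every alternative run: Cry1 in 1,5-naphthalenediol and 2,7-naphthalenediol against DMSO, against each other and 1,5-naphthalenediol against naphthalene, Nr1d2 in 1,5-naphthalenediol against DMSO and naphthalene, and Nr1d1 between the diols. Over the 30, 91 of 499 alternative values lost the call and 0 changed direction, and of 1161 alternative values of the uncalled differences 32 gained one. The number of members called, out of 10, was within 1.5 times in all 11 counts with quantile normalization and the stricter filter. With normexp, run on the median signal because the files hold no mean signal and so added after seeing the data, it was 4 for 1-naphthol against DMSO and 1 for 2,7-naphthalenediol against 1-naphthol. Without a filter on dim probes, which takes in more genes, it was 4 in the F test, 1 for 2,7-naphthalenediol, 2 for 1,5-naphthalenediol, 0 for 1-naphthol and 2 for naphthalene against DMSO, 3 for 2,7-naphthalenediol against naphthalene and 0 for 1-naphthol against naphthalene. With probes averaged it was 1 for 2,7-naphthalenediol against DMSO. With the slide as a block, which leaves the comparison across slides to 1 group, it was 0 for 1-naphthol and 0 for naphthalene against DMSO, 2 for 1,5-naphthalenediol against 1-naphthol and 0 for 2,7-naphthalenediol against naphthalene. With the slide as a random block (consensus correlation 0.187) the first 2 and the last were 1, 2 and 1. Fitting only the 2 groups compared gave 1 for 2,7-naphthalenediol and 2 for naphthalene against DMSO, 3 for 2,7-naphthalenediol against naphthalene and 0 for 1-naphthol against naphthalene, and slide 2 alone gave that pair 0 too. Slide 2 alone was also run for 1,5-naphthalenediol against 1-naphthol and naphthalene, added after seeing the data. 1,5-naphthalenediol has a single array there, so that the counts from this run are not read. Adjusting over the 10 comparisons together gave 4 for 1-naphthol against naphthalene. Leaving out 1 array gave 5 to 7 in the F test, 0 to 1 for 1-naphthol and 1 to 4 for naphthalene against DMSO, 3 to 6 for 2,7-naphthalenediol against naphthalene and 0 to 2 for 1-naphthol against naphthalene. The replicate block, whose numbers only name the arrays (5 of 15 arrays correlate best with their own number), left all 11 counts within 1.5 times: 7 in the F test. These counts stand without the share of all genes called in each setting, so that calls lost or gained are not read as particular to the 10 genes. Where no construction is named, the cause was not tested. The probes that stood for the 10 genes were well above background on all 15 arrays, with standard errors between 0.0426 for Cry2 and 0.129 for Clock. Signal over background limits the second Clock probe, which was well above it on 13.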
